A study of Homo sapiens with 6 samples.

Results

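The genes described here carry out or control cholesterol synthesis, uptake and sensing. They were chosen by symbol, 29 of the 24432 gene symbols in the files, and all 29 were present. The choice was made with earlier results of these data known. The 6 libraries, 3 in each of 2 groups, came from cells labelled PLC/PRF/5, a long-established line grown from a human hepatocellular carcinoma. The sensitive group was labelled wild type and given the control treatment. The resistant group was labelled lenvatinib resistant by genotype and lenvatinib by treatment, an oral inhibitor of VEGF and FGF receptor kinases used against liver cancer. Per the labels, dosing began at 20 µmol/L, rose by 0.5 mmol/L at each passage and ended at 40 mmol/L, so the units given for the start and for the steps do not match. Both groups grew with 10% serum, a source of lipoprotein cholesterol. No group grown briefly in the drug is described, so exposure and resistance cannot be told apart, and nothing in the labels says that the 3 libraries of a group were separate cultures. The p-values therefore measure the spread between these libraries, which may be technical.

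Cells build cholesterol from acetyl-CoA. The early enzymes make mevalonate and then isoprenoid diphosphates, squalene synthase commits carbon to sterols, and the late enzymes close and trim the rings. Control lies in the endoplasmic reticulum, where SCAP carries the SREBP transcription factors to the Golgi for cleavage when sterol is low, and the INSIG proteins hold SCAP back when sterol is high. Cleaved SREBP2 turns on the enzymes and the uptake genes, and liver cells are a major site of the pathway.

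No unit is named for the values, which were read as FPKM, fragments scaled to transcript length and to library size. On that reading, levels can be compared between genes. Judged by the spacing of the lowest values, the deepest library exceeded the shallowest by 3.46%. Summed FPKM was 410492 to 475088 in the sensitive and 366048 to 377923 in the resistant libraries. Sensitive replicate 3 stood apart from its group, at Pearson's r of 0.952 and 0.964 with the other sensitive libraries against 0.995 between those (across tested genes, on log2(FPKM + 1)). Between the groups r was 0.680 to 0.706. The labelled cell type was checked with 10 hepatocyte markers, whose summed level was 3259 to 4058 FPKM in the sensitive and 12.7 to 31.7 FPKM in the resistant libraries. Of these markers 9 fell and 1, TTR, was below the filter. In the sensitive libraries SERPINA1 and AMBP, at means of 2252 and 991 FPKM, made up most of that sum. ALB, AFP and TTR were low in the sensitive group too, at means of 3.21, 1.38 and 0.545 FPKM. ALB was listed at 0 in resistant replicates 1 and 3, and resistant replicate 2 had the highest marker sum of its group. The resistant libraries thus hold the defining transcripts of the labelled cell type only at or near 0 or at low levels, and the part of that loss in the results below was not tested. Whether both groups come from the labelled line was not tested either, and the names sensitive and resistant stand for the libraries so labelled. Markers of fibroblasts summed to at most 1.80 FPKM and those of endothelial cells to at most 0.348 FPKM in any library. The leukocyte markers summed to 250 to 268 FPKM in the sensitive and 2.76 to 5.41 FPKM in the resistant libraries, nearly all of it LYZ and CD68, with PTPRC listed at 0 throughout.

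Most of the cholesterol pathway was lower in resistant cells. Of 26 members tested, 21 (80.8%) fell and 2 (7.69%) rose, against 32.5% of all 11694 tested genes called lower, 35.2% called higher and 67.7% called either way (limma-trend on log2(FPKM + 1), Benjamini-Hochberg adjusted p under 0.05 over all tested genes). The tested members' median log2 fold change was -1.10, beside 0.08 for all tested genes. Because members were chosen with earlier results of these data known, their shares beside all tested genes are a description only. Among members called lower, the estimated fall was at least 2-fold for 14 (53.8% of those tested, against 18.5% of all tested genes). It was at least 4-fold for 8 (30.8%, against 6.02%). These calls are against no change, not against a 2-fold or 4-fold change. The groups did not overlap for 25 of the 26 members, and for 22 of these the resistant libraries were the lower (74.4% and 35.1% of all tested genes). Differences run from -2.81 for INSIG1 to 1.45 for STARD4, and they are resistant minus sensitive on the log2(FPKM + 1) scale throughout, which understates the change of low values. In RNA of whole cultures, fewer cells that express a gene and less RNA per cell cannot be told apart.

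**Figure D1:**
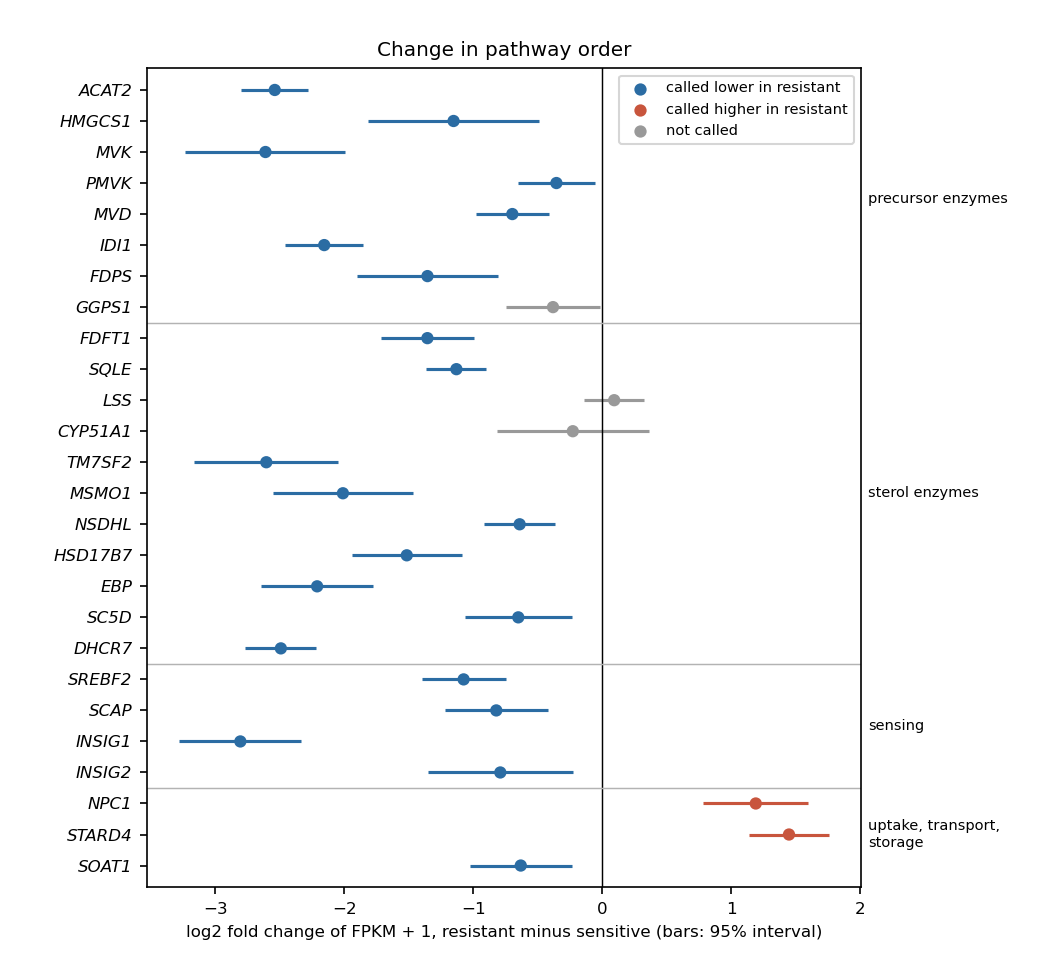
Log2 fold change of FPKM + 1, resistant minus sensitive, for the 26 tested members in pathway order, with the 95% interval from limma as a bar and the call as the colour. Only LSS, NPC1 and STARD4 lie above 0, and the 5 lowest values, between -2.81 and -2.49, belong to DHCR7, ACAT2, TM7SF2, MVK and INSIG1.

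A gene was tested if 3 or more libraries reached 1 FPKM, and 25 of the 26 tested members reached 1 FPKM in every library. STARD4 was under 1 FPKM in sensitive replicates 2 and 3. The other 3 members were below that filter. With no filter, NPC1L1 was called lower (adjusted p = 0.013 in limma), at -0.062 on the log2(FPKM + 1) scale, while MYLIP and SOAT2 were not called (0.133 and 0.341). NPC1L1, the intestinal and hepatic sterol uptake protein, was at 0.0374, 0.0601 and 0.0335 FPKM in the sensitive libraries and listed at 0 in the resistant ones. SOAT2, the sterol acyltransferase of hepatocytes and enterocytes, did not exceed 0.0608 FPKM in any library. MYLIP, the ubiquitin ligase that marks lipoprotein receptors for breakdown, was at 0.811 to 2.07 FPKM in sensitive and 0.429 to 0.932 FPKM in resistant libraries, and the groups overlapped.

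The promoters of 5 members are shown because they span the range of response, from the regulator SREBF2 and the widest falls, INSIG1 and MVK, to LSS, which was not called, and STARD4, which rose. Each run is the 250 bases before the gene's start site on the gene's own strand, from RefSeq's promoter table on GRCh38.p14. Capitals mark TCACNCCAC, a form of the sterol regulatory element that SREBP binds, and CCAAT, the NF-Y box that often stands beside it, on either strand, so the box reads ATTGG where it lies on the other strand.
SREBF2, chr22:41832855-41833104, + strand: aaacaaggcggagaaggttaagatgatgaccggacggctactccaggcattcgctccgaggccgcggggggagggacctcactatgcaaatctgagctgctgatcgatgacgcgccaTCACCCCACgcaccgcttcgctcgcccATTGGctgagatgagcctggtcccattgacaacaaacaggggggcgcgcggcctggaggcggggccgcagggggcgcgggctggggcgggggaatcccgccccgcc
INSIG1, chr7:155297628-155297877, + strand: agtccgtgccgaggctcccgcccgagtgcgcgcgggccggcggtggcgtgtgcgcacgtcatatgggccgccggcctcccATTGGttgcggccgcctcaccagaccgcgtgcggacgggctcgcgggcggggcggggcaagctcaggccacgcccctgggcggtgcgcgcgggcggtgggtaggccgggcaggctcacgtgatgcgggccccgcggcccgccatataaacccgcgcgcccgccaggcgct
MVK, chr12:109573544-109573793, + strand: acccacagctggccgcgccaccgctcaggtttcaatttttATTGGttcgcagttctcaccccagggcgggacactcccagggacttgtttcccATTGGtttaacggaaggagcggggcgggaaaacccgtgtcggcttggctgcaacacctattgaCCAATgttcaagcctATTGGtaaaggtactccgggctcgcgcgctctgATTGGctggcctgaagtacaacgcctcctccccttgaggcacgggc
LSS, chr21:46228775-46229024, - strand: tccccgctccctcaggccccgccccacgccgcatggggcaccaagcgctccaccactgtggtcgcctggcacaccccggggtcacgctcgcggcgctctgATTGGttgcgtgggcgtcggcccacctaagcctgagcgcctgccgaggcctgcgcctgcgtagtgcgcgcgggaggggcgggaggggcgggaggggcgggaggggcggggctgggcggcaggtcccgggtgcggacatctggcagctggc
STARD4, chr5:111512536-111512785, - strand: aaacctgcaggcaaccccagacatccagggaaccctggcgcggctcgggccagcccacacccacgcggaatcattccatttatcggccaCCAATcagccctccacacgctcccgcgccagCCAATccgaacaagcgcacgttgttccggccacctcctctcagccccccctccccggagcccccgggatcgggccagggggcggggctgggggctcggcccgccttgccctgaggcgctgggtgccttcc

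In the SREBF2 promoter the sterol element began at position -133 from the start site and the NF-Y box at position -106. The MVK run holds 5 NF-Y boxes, the STARD4 run 2, and those of INSIG1 and LSS 1 each. Over the table's whole window of 300 bases, 250 before and 50 after the start, promoters were found for 25 members, with ACAT2, FDFT1, SQLE and SOAT2 not matched. TCACNCCAC was in 1 of these 25 (4%), beside 1.15% of all 27305 promoters and 1.05% of the 9466 of tested genes. CCAAT was in 18 of 25 (72%), beside 35.7% of all promoters and 37.3% of those of tested genes. At least 2 boxes were in 11 of 25 (44%), beside 11.3% and 14.1%. GGGCGG, the GC box bound by SP1, was in 22 of 25 (88%), beside 44.6% and 71.7%. NSDHL, MSMO1, MVD, FDPS and EBP each held 3 to 5 NF-Y boxes and fell. PMVK, IDI1, SCAP and INSIG2 fell with none in the window. GGPS1 and CYP51A1, which were not called, and NPC1, which rose, also held none. A match of letters is a description and does not show binding. Only exact matches within the window were counted, so the lack of one does not show that a promoter has no such site.

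Of the 8 enzymes on the way from acetyl-CoA to the isoprenoid diphosphates 7 (87.5%) fell, beside 32.5% of all tested genes. The median log2 fold change over the 8 was -1.26. ACAT2, the cytosolic thiolase that joins acetyl-CoA units, was at 119, 129 and 106 FPKM in sensitive and 19.8, 19.9 and 18.3 FPKM in resistant libraries. The lowest sensitive value was above every resistant one by a wide margin, and ACAT2 fell by 2.54 (SE 0.109, adjusted p = 2.39e-06 in limma). HMGCS1, HMG-CoA synthase, was at 22.4, 19.4 and 10.2 FPKM in sensitive and 5.99, 7.09 and 7.59 FPKM in resistant libraries. It fell by 1.15 (SE 0.277, adjusted p = 0.0087), with sensitive replicate 3 well below its group. Mevalonate kinase, MVK, was at 19.2, 19.8 and 37.7 FPKM against 3.36, 3.31 and 2.78 FPKM. Here sensitive replicate 3 was the high library, and MVK fell by 2.61 (SE 0.260, adjusted p = 0.000123).

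The differences were smaller for the kinase and decarboxylase that follow MVK. PMVK, phosphomevalonate kinase, was at 26.3, 28.4 and 33.9 FPKM in sensitive and 24.5, 22.0 and 21.7 FPKM in resistant libraries. It fell by 0.36 (adjusted p = 0.0403 in limma), and the call ended when sensitive replicate 2 or any resistant replicate was left out (adjusted p from 0.0634 to 0.125), under geometric mean scaling (0.0691) and with the replicate number as a block (0.104). MVD, the diphosphomevalonate decarboxylase, fell by 0.70, from 31.5 ± 3.95 to 18.9 ± 0.480 FPKM (mean ± SD, n = 3 here and below; adjusted p = 0.00169 in limma). IDI1, the isomerase that balances the pair of isoprene units, was at 17.6, 15.9 and 17.8 FPKM in sensitive and 2.72, 2.95 and 3.51 FPKM in resistant libraries. Its replicates were tight in both groups, and IDI1 fell by 2.16 (SE 0.126, adjusted p = 9.28e-06).

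FDPS, which makes farnesyl diphosphate, was among the most abundant members. It was at 99.9, 107 and 177 FPKM in sensitive and 54.3, 47.8 and 41.7 FPKM in resistant libraries, and it fell by 1.36 (SE 0.231, adjusted p = 0.00176 in limma). GGPS1, the synthase of geranylgeranyl diphosphate for protein prenylation, lies on the branch away from sterols. It was at 10.7, 8.82 and 7.96 FPKM against 5.87, 6.80 and 7.61 FPKM, and the groups did not overlap but came close. The log2 difference of GGPS1 was -0.38 (95% interval -0.74 to -0.02, adjusted p = 0.0584), and it was called lower without sensitive replicate 3 (-0.47, adjusted p = 0.00871), under quantile normalization (0.0111) and under geometric mean scaling (0.018).

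Of the 11 squalene and sterol enzymes 9 (81.8%) fell, beside 32.5% of all tested genes, with a median of -1.36 over the 11. FDFT1, squalene synthase, fell by 1.36, from 49.7 ± 9.58 to 18.6 ± 1.00 FPKM. SQLE, the squalene epoxidase, was at 31.8, 31.1 and 29.6 FPKM in sensitive and 13.1, 13.2 and 14.2 FPKM in resistant libraries. There was little spread in either group, and SQLE fell by 1.13 (SE 0.0974, adjusted p = 5.97e-05 in limma).

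The next enzymes in the sequence, LSS and CYP51A1, did not pass the test. LSS, lanosterol synthase, which closes the sterol rings, was at 17.9, 18.2 and 16.6 FPKM in sensitive and 18.7, 18.4 and 19.0 FPKM in resistant libraries. The resistant libraries were just above the sensitive ones, with a log2 difference of 0.09 and a 95% interval of -0.14 to 0.32 (adjusted p = 0.432 in limma). The lower end of that interval lies far above the values of SQLE and FDFT1. CYP51A1, the lanosterol demethylase, was at 48.9, 46.3 and 25.3 FPKM against 30.6, 33.7 and 34.1 FPKM. The groups overlapped through sensitive replicate 3 alone, and the difference was -0.23 (interval -0.82 to 0.36, adjusted p = 0.432). Without sensitive replicate 3, CYP51A1 was called lower at -0.52 (adjusted p = 0.000283).

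TM7SF2, the sterol reductase that acts after CYP51A1, was at 32.2, 38.0 and 59.1 FPKM in sensitive and 6.13, 6.95 and 5.08 FPKM in resistant libraries. It fell by 2.61 (SE 0.234, adjusted p = 7.45e-05 in limma), as far as MVK. MSMO1, the methyl sterol oxidase, was at 36.7, 26.2 and 19.1 FPKM against 5.20, 5.99 and 6.26 FPKM and fell by 2.01 (SE 0.229, adjusted p = 0.000239). Its partners in removing the methyl groups fell less, NSDHL by 0.64, from 26.1 ± 2.88 to 16.3 ± 0.696 FPKM, and HSD17B7 by 1.52, from 15.7 ± 3.16 to 4.81 ± 0.788 FPKM.

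EBP, the sterol isomerase, was the most abundant member in sensitive cells. It was at 138, 158 and 216 FPKM there and at 37.5, 38.0 and 30.9 FPKM in resistant libraries, and it fell by 2.21 (SE 0.183, adjusted p = 4.87e-05 in limma). SC5D, the desaturase that follows, fell by 0.65, from 6.62 ± 1.35 to 3.82 ± 0.585 FPKM, and its call ended without resistant replicate 1 or 2 (adjusted p = 0.0577 and 0.0586). DHCR7, which makes cholesterol from its last precursor on this branch, was at 71.8, 78.4 and 90.1 FPKM against 13.3, 13.9 and 12.9 FPKM. The spread in each group was small beside the gap between them, and DHCR7 fell by 2.49 (SE 0.115, adjusted p = 3.24e-06).

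**Figure D2:**
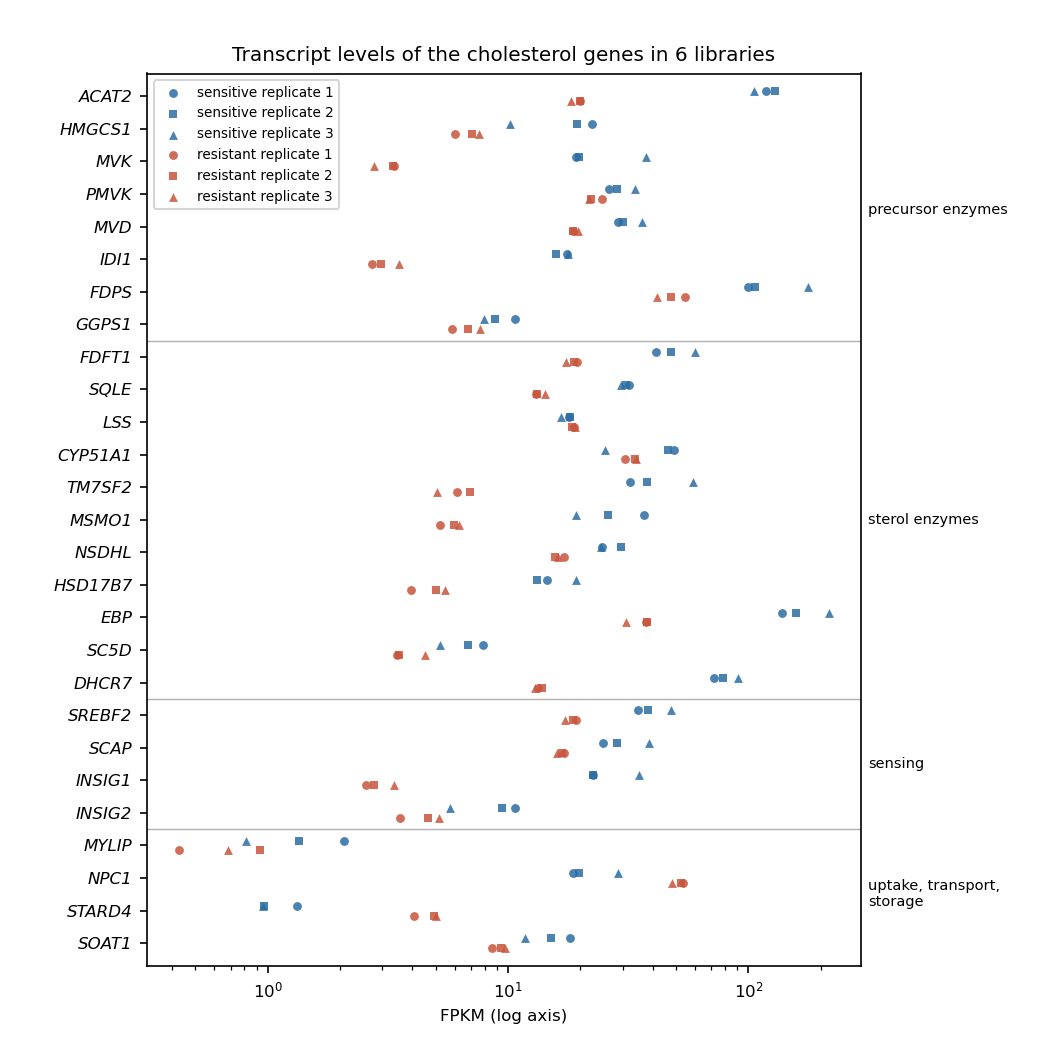
FPKM in each of the 6 libraries on a log axis for 27 members in pathway order, with colour for the group and marker shape for the replicate; NPC1L1 and SOAT2 are left out because some of their values are 0. Blue lies to the right of red for the enzymes except LSS and CYP51A1, where the colours sit together, and the order is turned for NPC1 and STARD4.

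The summed level of the 19 enzymes was 809, 851 and 991 FPKM in sensitive and 304, 302 and 289 FPKM in resistant libraries, a ratio of group means of 2.96. As a share of all FPKM this was 0.197%, 0.199% and 0.209% against 0.0804%, 0.0825% and 0.0785%, so the gap of the groups in summed FPKM leaves a ratio of 2.50. Over the 26 tested members the mean levels of the groups correlated at Pearson's r of 0.605 on log2(FPKM + 1) and Spearman's rho of 0.616, a description over genes that share their libraries.

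By level, EBP, FDPS and ACAT2 came first in sensitive cells, at 170 ± 40.4, 128 ± 42.7 and 118 ± 11.4 FPKM, and FDPS overlapped both others in range while EBP lay above ACAT2 in each library. DHCR7 followed at 80.1 ± 9.30 FPKM. In resistant cells NPC1 came first, at 51.3 ± 2.92 FPKM, next to FDPS at 47.9 ± 6.27 FPKM, whose ranges overlapped. EBP at 35.5 ± 3.98 and CYP51A1 at 32.8 ± 1.92 FPKM came next, also within their spread.

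The 4 sensing genes all fell, beside 32.5% of all tested genes. SREBF2, which encodes the SREBP2 precursor and carries the sterol element printed above, was at 34.8, 38.3 and 47.4 FPKM in sensitive and 19.2, 18.7 and 17.3 FPKM in resistant libraries. It fell by 1.08 (SE 0.136, adjusted p = 0.00041 in limma), and the lowest sensitive library lay well above the highest resistant one. SCAP, its escort, was at 25.0, 28.3 and 38.6 FPKM against 17.0, 16.8 and 16.0 FPKM and fell by 0.82 (SE 0.167, adjusted p = 0.00408).

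INSIG1, itself a target of SREBP and the retention factor for SCAP, had the widest fall of all members. It was at 22.6, 22.5 and 35.1 FPKM in sensitive and 2.56, 2.78 and 3.34 FPKM in resistant libraries, and it fell by 2.81 (SE 0.198, adjusted p = 2.24e-05 in limma). Of all tested genes, 2.88% had a lower value of that difference. INSIG2, the second retention factor, was at 10.6, 9.44 and 5.73 FPKM against 3.54, 4.64 and 5.15 FPKM. It fell by 0.79 (adjusted p = 0.021), but sensitive replicate 3 almost met resistant replicate 3. The INSIG2 call ended without sensitive replicate 1 or 2 or resistant replicate 1 or 2 (adjusted p from 0.0552 to 0.081) and narrowly with the replicate number as a block (0.0501). The ratio of INSIG1 to INSIG2 was 2.12, 2.39 and 6.12 in sensitive and 0.722, 0.599 and 0.650 in resistant libraries. INSIG1 was therefore the more abundant of the pair in each sensitive library and the less abundant in each resistant one.

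**Figure D3:**
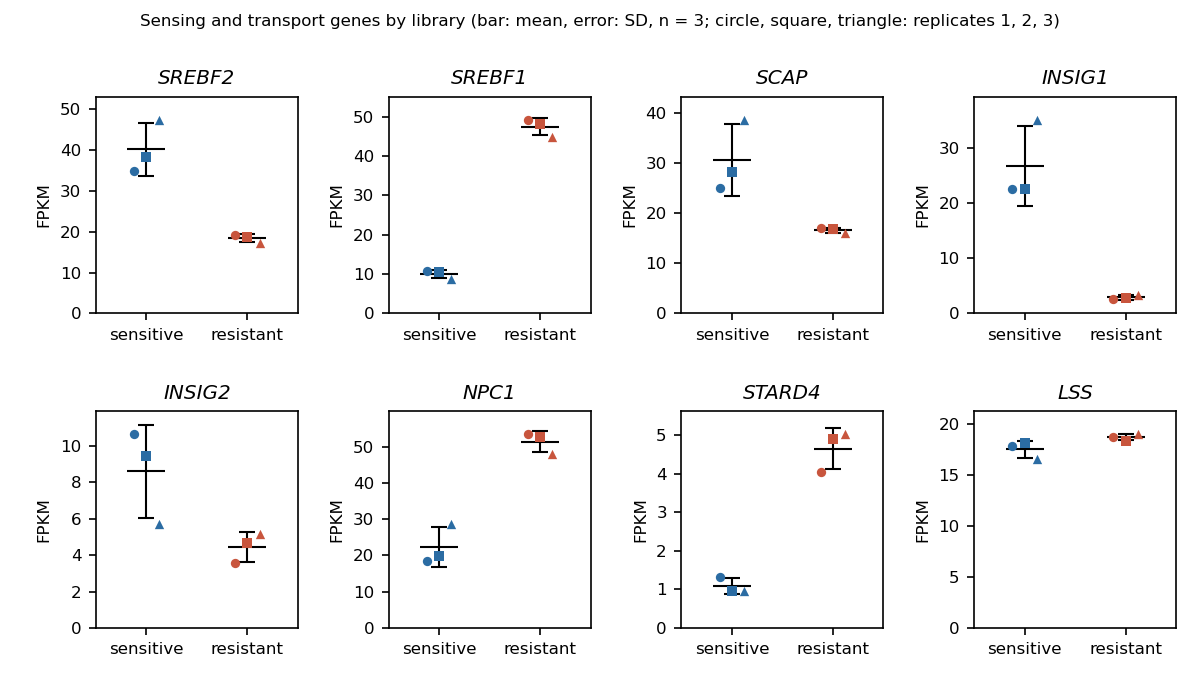
FPKM of SREBF2, SREBF1, SCAP, INSIG1, INSIG2, NPC1, STARD4 and LSS in each library, with a bar at the group mean and the SD over n = 3 as error; each axis starts at 0. SREBF2, SCAP and INSIG1 are lower in the resistant group, SREBF1, NPC1 and STARD4 are higher, LSS is at 16.6 to 19.0 FPKM in all 6 libraries, and INSIG2 comes close to meeting between groups.

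Both members that rose act in moving cholesterol within the cell. NPC1, the lysosomal membrane protein that releases lipoprotein cholesterol, was at 18.6, 19.8 and 28.6 FPKM in sensitive and 53.4, 52.5 and 48.0 FPKM in resistant libraries. It rose by 1.19 (SE 0.171, adjusted p = 0.000776 in limma), with all resistant libraries well above sensitive replicate 3. STARD4, a soluble carrier of sterol between membranes, was at 1.32, 0.962 and 0.952 FPKM against 4.05, 4.90 and 5.03 FPKM and rose by 1.45 (SE 0.129, adjusted p = 7.06e-05). All resistant libraries were above all sensitive ones for STARD4, the lowest of the tested members in sensitive cells. SOAT1, which esterifies cholesterol for storage in droplets, was at 18.1, 15.2 and 11.8 FPKM against 8.61, 9.32 and 9.67 FPKM. It fell by 0.63 (adjusted p = 0.0125), and its call ended without resistant replicate 1 (adjusted p = 0.052).

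Some members share genomic ground with other genes, and the strand setting of the counting is not given in the sources used here. In GENCODE release 29, exons of ACAT2 overlap TCP1 and SOD2 on the opposite strand, those of MVK overlap MMAB, and those of NPC1 overlap RMC1. Mean levels were 307 FPKM in sensitive and 113 FPKM in resistant libraries for TCP1, 6.02 and 1.38 FPKM for MMAB and 24.4 and 44.6 FPKM for RMC1, so these were lower or higher in the same group as the member they overlap. SOD2 was at 23.1 and 21.3 FPKM. For these pairs, reads of the partners may not have been told apart. GGPS1 overlaps TBCE (16.5 and 6.42 FPKM) and TM7SF2 overlaps VPS51 (31.1 and 24.3 FPKM) on the same strand. FDPS, CYP51A1 and HSD17B7 have 8, 3 and 2 pseudogenes named after them in that annotation, so their levels are uncertain as far as reads were shared with copies.

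Within the sensitive group the members did not vary together. Sensitive replicate 3 was above the mean of replicates 1 and 2 for 14 tested members and below it for 12 (log2 scale). MVK, FDPS, TM7SF2 and INSIG1 stood 0.91, 0.77, 0.74 and 0.62 higher there, while HMGCS1, CYP51A1, INSIG2 and MSMO1 stood at -0.96, -0.89, -0.71 and -0.67. These deviations went with the GC content of the transcripts and, less closely, with their length. Over the 26 members they correlated with GC percent at Pearson's r of 0.719 and Spearman's rho of 0.679, and over 10746 tested genes at 0.438 and 0.461, as a description of 1 library against 2 others. With transcript length r was -0.306 and rho -0.454 over the members, and -0.241 and -0.247 over the tested genes. Of the 13 members at or above the median of 48.7% GC, 10 were higher in replicate 3, and of the 13 below it 9 were lower. The difference between resistant and sensitive libraries correlated with GC percent at an r of -0.232 over the members and -0.0576 over all tested genes with a value. The part of GC content and length in the calls was not tested. Leaving out sensitive replicate 3 changed the calls of GGPS1 and CYP51A1 among the members, as given with their values.

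**Figure D4:**
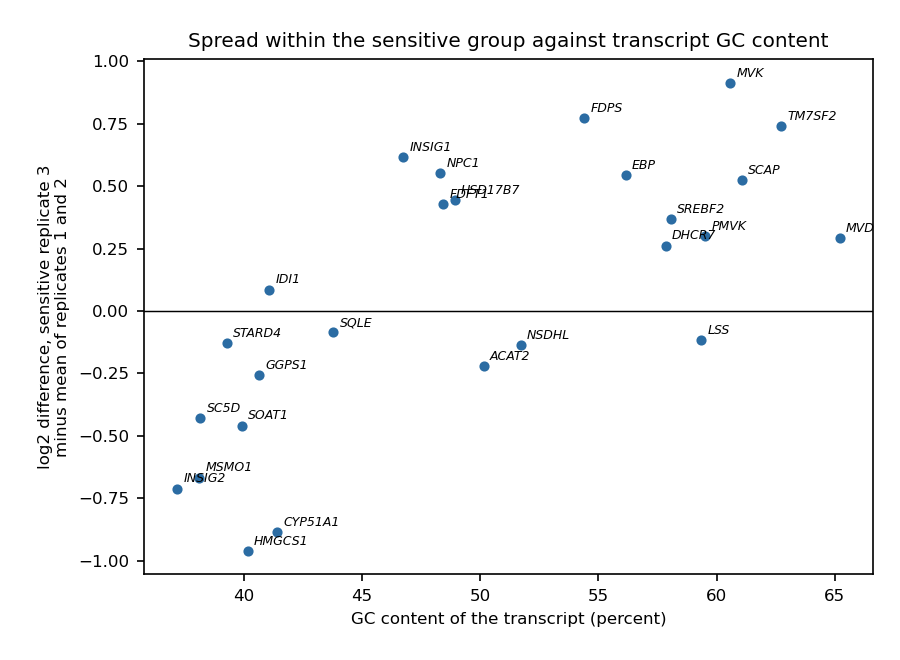
Each point is 1 of the 26 tested members, with the GC content of its transcripts in percent on the x axis and, on the y axis, the log2 difference of sensitive replicate 3 from the mean of sensitive replicates 1 and 2. Members of low GC such as HMGCS1 and CYP51A1 lie below 0, and those of high GC such as MVK and TM7SF2 lie above it.

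Other genes of sterol metabolism, on 6 lists of 71 genes, gave a more mixed picture. Of 54 tested, 31 (57.4%) fell, 12 (22.2%) rose and 11 did not pass, with the background as above, and their median was -0.53. Of 7 accessory and alternative sterol enzymes 6 (85.7%) fell. TMEM97, a sterol-responsive partner of NPC1 from the family of EBP, fell by 2.96, from 31.8 ± 4.71 to 3.18 ± 0.133 FPKM (adjusted p = 3.51e-06 in limma), and EBPL, a relative of EBP, fell by 1.87. Of 14 genes on the isoprenoid branches 8 (57.1%) fell and 1 (7.14%) rose. PDSS2, which makes the side chain of coenzyme Q, fell by 2.53, ZMPSTE24, the protease that trims prenylated lamin A, by 1.66, and FNTA, a subunit of both farnesyl and geranylgeranyl transferase, rose by 0.32.

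Of 11 genes of SREBP cleavage and of sterol-regulated protein degradation 6 (54.5%) rose and 3 (27.3%) fell, beside 35.2% and 32.5% of all tested genes. The proteases that cleave SREBP were not among those that rose. MBTPS1, which makes the initial cut, fell by 0.37 (adjusted p = 0.0217 in limma). MBTPS2, which makes the cut within the membrane, had a log2 difference of -0.67 and did not pass (adjusted p = 0.332), but was called lower at -1.37 without sensitive replicate 3 (adjusted p = 0.000295). Both proteases are named after their values were seen. SREBF1, which encodes the SREBP1 forms that favour fatty acid synthesis, was at 10.8, 10.5 and 8.80 FPKM in sensitive and 49.2, 48.1 and 45.0 FPKM in resistant libraries. It rose by 2.14 (SE 0.115, adjusted p = 6.30e-06 in limma), the opposite direction to SREBF2. In sensitive libraries SREBF2 was thus the more abundant of the pair, and in resistant libraries SREBF1 was. RNF145, a sterol-responsive ubiquitin ligase, rose by 0.72. ERLIN2 and ERLIN1, a pair of membrane scaffolds that bind SCAP complexes and sterol, fell by 1.72 and 0.43.

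Of 17 genes for lipoprotein uptake and membrane transport 11 (64.7%) fell and 5 (29.4%) rose, beside 32.5% and 35.2% of all tested genes. SCARB1, the HDL receptor, fell by 3.00, from 37.7 ± 4.61 to 3.84 ± 0.518 FPKM (adjusted p = 3.25e-06 in limma), and LIPA, the lysosomal lipase that frees cholesterol from its esters, fell by 2.20. NPC2, the soluble partner of NPC1 in the lysosome, rose by 0.64 and the oxysterol-binding protein gene OSBPL2 by 1.40. Of 3 tested genes of the liver X receptors and sterol efflux 2 (66.7%) fell. NR1H2, the broadly expressed receptor, fell by 0.50 and ABCA1, the exporter that loads HDL, by 0.95. NR1H3 did not pass (-0.50, adjusted p = 0.107 in limma) but was called lower without sensitive replicate 3 (-0.77, adjusted p = 0.000321). Of 10 oxysterol and bile acid genes 2 were tested. HSD3B7, an early enzyme of bile acid synthesis, fell by 2.13, and CYP27A1, the sterol hydroxylase of mitochondria, did not pass (-0.35, adjusted p = 0.0806). ABCA1, NR1H3, HSD3B7 and CYP27A1 are named because their lists are small, after their values were seen.

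**Figure D5:**
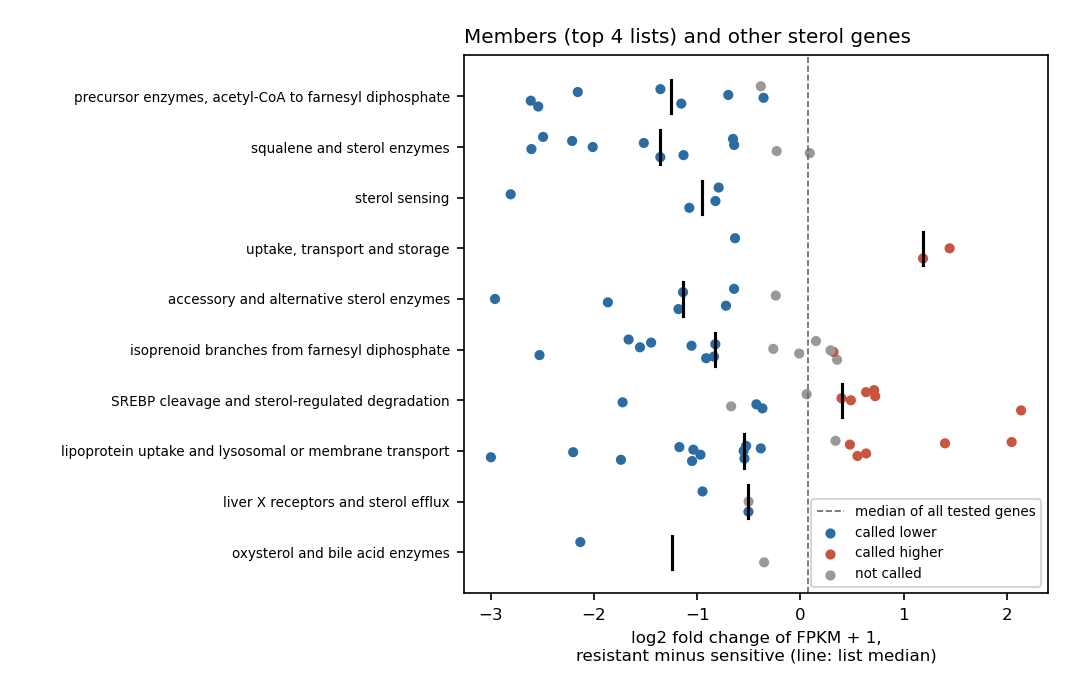
Log2 fold change of FPKM + 1, resistant minus sensitive, for each tested gene of the 4 member lists and the 6 lists of other sterol genes, coloured by call, with a line at each list's median and a dashed line at the median of all tested genes (0.08). Precursor and sterol enzymes lie mostly to the left, and the SREBP cleavage and degradation list has its median at 0.40.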

How the data were processed

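For each library the authors deposited a list of gene symbols with 1 value each. No unit is named there, and the deposited values were read as FPKM (RPKM would look alike), in which the authors had divided fragments by transcript length and library size. The submitters' processing notes name cutadapt for trimming and HISAT2 for alignment. Their versions, the counting program, build, annotation and strand setting were not given in the sources used here. The labels' protocols state an input of 1.5 µg of RNA. Read counts are not analysed here, and depth was compared through the steps of values under 0.05 FPKM.

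Groups and replicate numbers came from the sample titles. All 6 libraries entered 1 limma-trend fit of group, with no block, in R 4.3.3 with limma 3.58.1, on log2(FPKM + 1) where 3 or more libraries reached 1 FPKM. Residual degrees of freedom were 4, prior ones 2.75, and the fit was tested on simulated data for this comparison. It recovered 63% of 100 genes changed 2-fold and 92% of 100 changed 4-fold among 10532 genes, and called 5 unchanged genes. The simulation changed only those genes and drew the noise of each gene independently, whereas 67.7% of tested genes were called in the data. Its rates therefore need not hold for the data. P-values were adjusted over all 11694 tested genes. All members are named; from each other list, up to 2 called genes in each direction with a mean of at least 5 FPKM are named. Members and lists were chosen with earlier results of these data known. GC content is the median over a gene's protein-coding transcripts in GENCODE release 29, found for 91.9% of tested genes. Where RefSeq's promoter table gives a gene several starts, the one listed earliest was used. Other steps used Python 3.11.15 with matplotlib 3.10.9, numpy 2.4.6, pandas 2.3.3 and scipy 1.17.1. Alternatives were other scalings, pseudocounts, filters and variance models, a test against a 1.5-fold change, the replicate number as a block, and each library left out.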

Additional observations from a re-analysis of the deposited data

How the results depend on the processing

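The 26 tested members kept their direction under every alternative run, in 389 of 389 values, and 16 members also kept their side of the threshold throughout. The other filters and variance models, the 1.5-fold test and the replicate block leave each log2 difference unchanged. Under these only the call could change, so direction was at stake only under the other scalings, the other pseudocount and with libraries left out. Among the 389 values, 22 lost a call and 4 gained it. Members called lower numbered 21 in the fit reported, 17 to 23 with 1 library left out and 13 under the test against a 1.5-fold change, which asks for a larger change. Members called higher numbered 2 with each library left out and 1 with a mean of at least 5 FPKM, since STARD4 was below that filter. All called genes numbered 6675 to 9442 with 1 library left out (6675 without resistant replicate 2, 9442 without sensitive replicate 3), 4973 with that filter, which tested only 7396 genes, and 4357 against a 1.5-fold change. The other pathway genes called higher numbered 12, with 7 to 14 when 1 library was left out (7 without resistant replicate 2), and those called lower 31, with 22 to 33. Against a 1.5-fold change these were 3 and 16. With the replicate number as a block, 19 members were lower and 2 higher, and 7193 genes were called in all. Same-numbered libraries deviated together at r of -0.422, 0.0717 and -0.228, and libraries of unlike number at -0.155 to 0.346. Deviations from a mean of 3 libraries constrain each other, so these values cannot show whether the numbers pair the samples. Scaling moved the median of all genes by less than 0.1. With no filter, 10039 of 22521 genes were called, so the share of all genes called went from 67.7% to 44.6%, higher from 35.2% to 22.9% and lower from 32.5% to 21.7%, while 22 of 29 members were lower, NPC1L1 being the one added. The limits that depth sets were not tested, since read counts are not analysed here. Without sensitive replicate 3, DHDDS was also called higher (0.60), and MBTPS2 and NR1H3 lower.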
